A study of Mus musculus with 18 samples.

Results

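Hypoxia response and glycolysis genes were followed as a set of 33 genes, chosen by name and found by Ensembl gene ID among the 37620 gene IDs that were counted. The set holds 3 transporters of sugar or lactate, 16 enzymes of glycolysis and its exits, 2 oxygen-sensing hydroxylases and 12 further genes of the hypoxia response. All 33 passed the filter on low counts and were among the 14849 genes tested. Levels are counts scaled to 1000000 assigned read pairs of a library (CPM), and a change is a log2 fold change ± SE.

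Cells sense oxygen through prolyl hydroxylases, which mark the alpha subunits of hypoxia-inducible factors (HIF) for destruction by the von Hippel-Lindau protein while oxygen is plentiful. When oxygen is short the alpha subunits persist, pair with Arnt and bind a short core motif near genes for glucose uptake, glycolysis, lactate export, acid-base balance, mitophagy and collagen hydroxylation. Melanoma cells, like many tumour cells, run glycolysis at a high rate also where oxygen is present.

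Tumours were of MO4, a B16F10 melanoma subline expressing ovalbumin, grown under the skin of C57BL/6 mice. All mice, controls included, carried a tumour in each hindlimb from 100000 cells given on day 0, and RNA of the tumours was taken on day 11. Mice of the pMC groups got injections of 1000000 iPSC-pMCs, which are derived from induced pluripotent stem cells, around the right-hand tumour on each of days 5, 6 and 7. Mice of the IFN-alpha-pMC groups got cells marked IFN-alpha in the same way, and control mice got none. The 6 groups are the 3 treatments on the right (injected) and left (distant) side, with 3 libraries each, named below by side, treatment and the number in the title. No label states the age of the mice or whether the libraries of a group came from separate mice. The p-values then measure only the spread between libraries, which may be technical. MO4 is 1 cell line, and the injected cells themselves were not sequenced apart. In whole tumours a change in the share of a cell type and a change in RNA per cell cannot be told apart.

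The promoters of the genes hold the HIF core motif often. The search covered 4 letter strings in the 250 bases before each start of RefSeq (build GRCm38.p6): ACGTG and GCGTG and, for the other strand, CACGT and CACGC, of which CACGT and ACGTG overlap in CACGTG. Of the 33 genes, 30 were matched, and 28 of these (93.3%) had at least 1 core before any of their starts, against 41.5% of all 27025 genes in the table, counted the same way. The member promoters were also richer in G and C, with a median of 62.8% against 52.4% for all promoters. Gpi1 and Tpi1 were the matched genes with no core in this window at any start. Aldoa, Hk1, Mxi1, Pdk1, Pkm and Vegfa each also had a start without a core. A match of letters is a description only. The 180 bases before the start are shown for 4 genes that rose in the tests below and differ in how the cores lie, with the cores in capitals. They are, 5′ to 3′, Bnip3 at chr7:138909507-138909686 (minus strand), Car9 at chr4:43506846-43507025, Slc16a3 at chr11:120948887-120949066 and P4ha1 at chr10:59323116-59323295 (plus strand).
Bnip3: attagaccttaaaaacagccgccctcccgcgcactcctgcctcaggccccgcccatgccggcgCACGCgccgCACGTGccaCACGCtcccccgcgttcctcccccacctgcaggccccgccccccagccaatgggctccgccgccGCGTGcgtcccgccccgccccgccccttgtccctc
Car9: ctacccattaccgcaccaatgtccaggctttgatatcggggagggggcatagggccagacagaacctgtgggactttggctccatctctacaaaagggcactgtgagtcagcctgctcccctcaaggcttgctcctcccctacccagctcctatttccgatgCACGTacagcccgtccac
Slc16a3: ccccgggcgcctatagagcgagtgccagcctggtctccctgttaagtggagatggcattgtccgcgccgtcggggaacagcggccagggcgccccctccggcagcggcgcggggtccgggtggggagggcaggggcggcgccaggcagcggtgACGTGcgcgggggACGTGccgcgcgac
P4ha1: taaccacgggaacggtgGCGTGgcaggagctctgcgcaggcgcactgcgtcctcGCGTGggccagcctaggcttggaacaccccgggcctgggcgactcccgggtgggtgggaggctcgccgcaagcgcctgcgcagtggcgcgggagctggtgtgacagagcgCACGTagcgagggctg
Bnip3 had 5 cores with a pair overlapping, P4ha1 had 3 spread over the window, Slc16a3 had 2 close to the start and Car9 had 1, which began 18 bases before the start.

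In units of 1000000 counts, the libraries held 14.35 to 23.43 (median 18.85), so a count of 0 allows up to 3 counts, 0.128 to 0.209 CPM, and this covers counting error only. Melanocyte markers were high everywhere: their 10 genes summed to 32580 to 43611 CPM over all libraries, and 0 of 10 passed the edgeR test in any treatment comparison. Within their groups 3 libraries stood apart: the right-side libraries numbered 3 of control and of IFN-alpha-pMC, and library 1 of left IFN-alpha-pMC. Whether libraries were exchanged or differed in RNA quality was not tested. The labels give all right tumours, those of untreated controls included, as the treated side. Levels in a library, centred over libraries, followed exonic length, counted over all annotated exons of a gene merged (Spearman's rho over genes, a description). In the right controls rho was 0.30, 0.50 and, in library 3, -0.45. In the right IFN-alpha-pMC libraries it was -0.27, -0.39 and, in library 3, 0.31. In left IFN-alpha-pMC library 1 it was -0.42, against -0.16 and -0.06 in the others. Left controls gave 0.31, 0.25 and 0.34, above every left IFN-alpha-pMC library. The pMC libraries gave 0.04, -0.02 and -0.11 on the right and 0.28, 0.02 and 0.07 on the left. The trend was thus not limited to the libraries that stood apart, and on the left it went with the difference between control and IFN-alpha-pMC. Fits with the trend removed are given below. Of the members, 7 (Aldoc, Pgk1, Ldha, Bnip3, Bnip3l, Ankrd37 and Higd1a, exonic length 1539 to 3859 bases) were highest of their group in both right control 3 and left IFN-alpha-pMC 1, where 23.8% of all tested genes were. Another 14, among them Slc2a1, Hk1, Hk2, Eno1, Pkm and P4ha1 (2662 to 13401 bases), were lowest in both, as were 41.1% of all tested genes, so both counts are near the shares of all genes. Results are therefore given with all 18 libraries first and then without these 3. The 3 were left out because they differ from their groups, which by itself shrinks the spread and raises the number of calls.

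**Figure D1:**
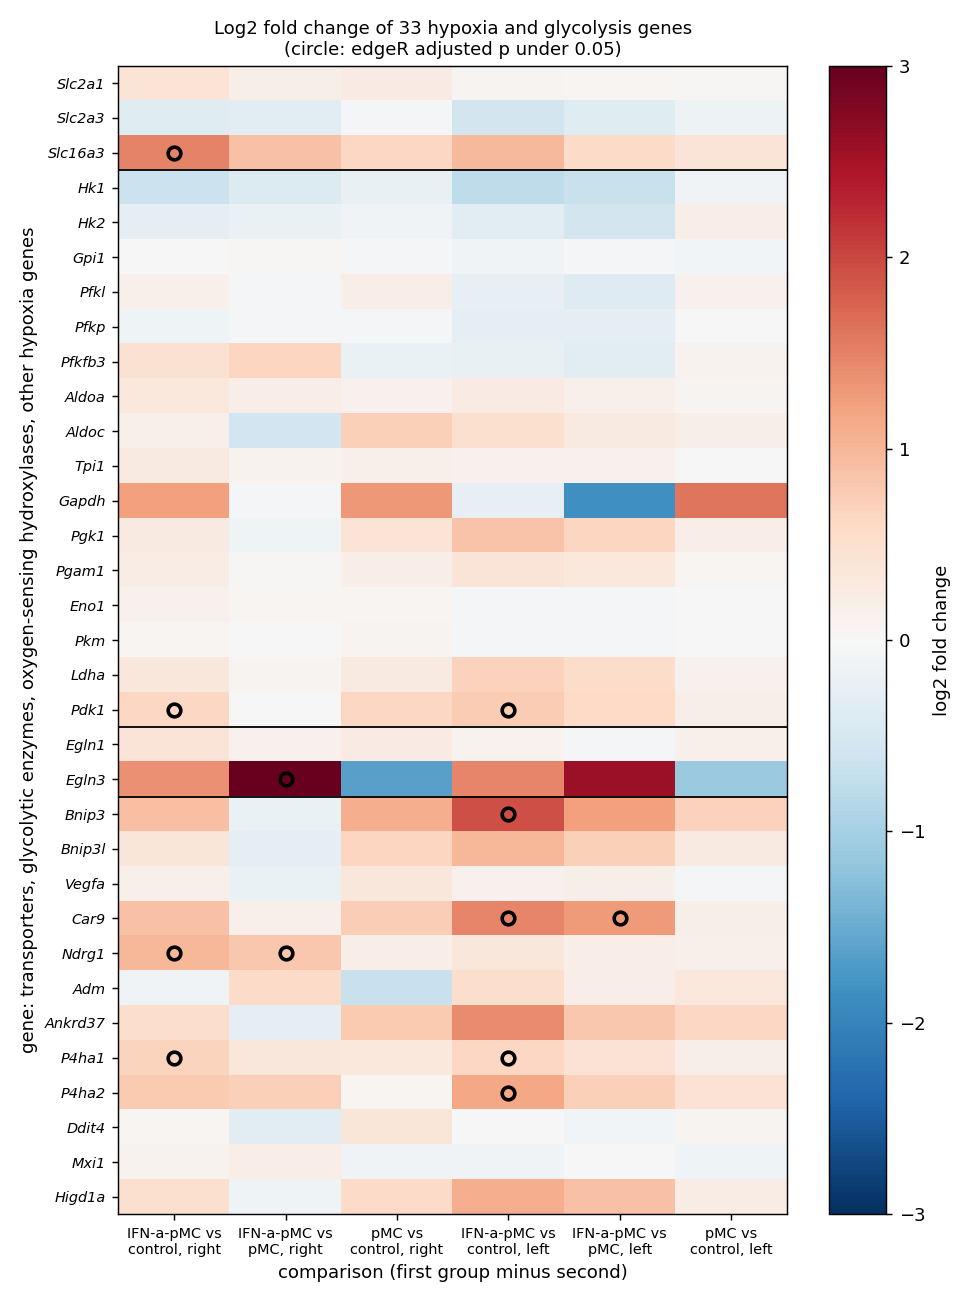
Log2 fold change of each of the 33 genes (rows, in the order transporters, glycolytic enzymes, hydroxylases and other hypoxia genes, parted by lines) in 6 treatment comparisons (columns), from all 18 libraries. Red is higher in the first-named group, blue is lower, and circles mark the 12 results with an adjusted p under 0.05, all of them higher in IFN-alpha-pMC tumours.

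Per kilobase of merged exon, the most abundant members were glycolytic enzymes. Merged exons can be longer than any 1 transcript, so the order depends partly on the annotation. Averaged over the 18 libraries, Aldoa (aldolase) stood at 1113 CPM per kilobase, Pgk1 (phosphoglycerate kinase) at 926, Tpi1 (triosephosphate isomerase) at 652, Pkm (pyruvate kinase) at 464 and Ldha (lactate dehydrogenase A) at 422. Bnip3, a mitophagy receptor, was the highest member outside glycolysis at 93.9 CPM per kilobase. At the low end were Adm (adrenomedullin, a vasodilator peptide) at 0.994 and Egln3 at 0.626. The glycolytic enzymes other than Gapdh summed to 14003 to 15948 CPM in right control, 13638 to 17735 in right pMC and 15577 to 18075 in right IFN-alpha-pMC libraries. On the left the sums were 14032 to 15433 in control, 14017 to 15133 in pMC and 13256 to 17030 in IFN-alpha-pMC libraries, and groups overlapped on both sides. Gapdh, the dehydrogenase often used as a reference gene, ran from 13.3 to 610 CPM with wide spread inside groups. Pairs aligned more than once are not in the counts and Gapdh has near-identical copies in the genome, so its values are uncertain and are not read further. Pgk1, Eno1, Ldha and Bnip3l also have close copies, and their counts may be low for the same reason.

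On the injected side, 4 of the 33 genes rose in IFN-alpha-pMC against control tumours and 0 fell, and 8.78% of all tested genes rose and 2.01% fell. The 4 genes were the lactate exporter Slc16a3, the pyruvate dehydrogenase kinase Pdk1, which holds pyruvate back from the citrate cycle, the stress-response gene Ndrg1, and P4ha1, a catalytic subunit of the prolyl hydroxylase that matures collagen. The median log2 fold change of the members was 0.32, against -0.03 over all tested genes. In 8 of 33 members all 3 IFN-alpha-pMC libraries lay above all 3 controls and in 0 all lay below, where 13.5% of all genes lay above and 4.41% below.

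Slc16a3 (monocarboxylate transporter 4, which carries lactate out of glycolytic cells) read 16.4, 12.9 and 29.3 CPM in right control libraries 1 to 3. It read 39.3, 30.9 and 19.6 CPM in right pMC and 52.0, 62.3 and 51.9 CPM in right IFN-alpha-pMC libraries. All IFN-alpha-pMC libraries were above every other right library, and the pMC and control libraries overlapped. The log2 fold change of IFN-alpha-pMC against control was 1.49 ± 0.32 (SE, edgeR adjusted p = 0.00428), 2.81-fold. On the left it read 19.1, 18.8 and 16.0 CPM in control, 19.9, 22.2 and 26.3 in pMC and 22.7, 29.9 and 43.9 in IFN-alpha-pMC libraries. The left groups of IFN-alpha-pMC and control did not overlap, yet the difference of 0.97 ± 0.31 missed the threshold (edgeR adjusted p = 0.0615).

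Pdk1 read 49.9, 67.0 and 67.3 CPM in right control, 103, 97.6 and 74.1 in right pMC and 103, 94.5 and 80.8 in right IFN-alpha-pMC libraries. Both injected groups lay above the controls without overlap. The difference of IFN-alpha-pMC from control was 0.62 ± 0.19 (edgeR adjusted p = 0.0413), and 0.38 (edgeR adjusted p = 0.266) without right control library 1. That of pMC from control had the same size, 0.62 ± 0.19, and did not pass the test (edgeR adjusted p = 0.945), in a comparison where no gene of all tested did. On the left Pdk1 read 54.2, 56.9 and 58.3 CPM in control, 69.5, 51.7 and 63.5 in pMC and 84.2, 79.8 and 94.0 in IFN-alpha-pMC libraries. The left IFN-alpha-pMC libraries were above the other 6, and the difference from control was 0.76 ± 0.19 (edgeR adjusted p = 0.0327).

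Ndrg1 read 10.2, 19.1 and 14.4 CPM in right control, 16.6, 14.2 and 17.0 in right pMC and 30.4, 29.1 and 26.2 in right IFN-alpha-pMC libraries. The IFN-alpha-pMC group lay apart from both others, by 1.00 ± 0.24 from control (edgeR adjusted p = 0.0096) and by 0.81 ± 0.23 from pMC (edgeR adjusted p = 0.0346). Leaving out 1 library brought the edgeR adjusted p to at most 0.0848 against control and 0.147 against pMC. On the left it read 14.7, 17.4 and 16.8 CPM in control, 12.9, 20.2 and 19.7 in pMC and 12.7, 18.4 and 25.7 in IFN-alpha-pMC libraries. These 3 groups overlapped, with a difference of 0.35 ± 0.24 from control (edgeR adjusted p = 0.269).

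P4ha1 read 128, 123 and 111 CPM in right control, 160, 146 and 123 in right pMC and 182, 182 and 194 in right IFN-alpha-pMC libraries. The IFN-alpha-pMC group was above all other right libraries, and the difference from control was 0.66 ± 0.16 (edgeR adjusted p = 0.0112, up to 0.0563 with 1 library left out). On the left it read 129, 113 and 108 CPM in control, 133, 121 and 130 in pMC and 106, 190 and 191 in IFN-alpha-pMC libraries. Library 1, which stood apart, was the lowest of the 9, and the other pair the highest. The left difference was 0.61 ± 0.16 (edgeR adjusted p = 0.0394). Its partner gene P4ha2, another catalytic subunit, read 9.95, 4.80 and 7.25 CPM in right control, 10.2, 6.08 and 5.90 in right pMC and 11.5, 11.7 and 14.2 in right IFN-alpha-pMC libraries. That right difference from control, 0.78 ± 0.32, did not pass (edgeR adjusted p = 0.136). On the left P4ha2 read 7.63, 4.11 and 3.35 CPM in control, 7.13, 6.18 and 6.59 in pMC and 7.13, 9.14 and 14.3 in IFN-alpha-pMC libraries. The left groups overlapped at their edges, and the difference of 1.15 ± 0.33 passed the threshold narrowly (edgeR adjusted p = 0.048).

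**Figure D2:**
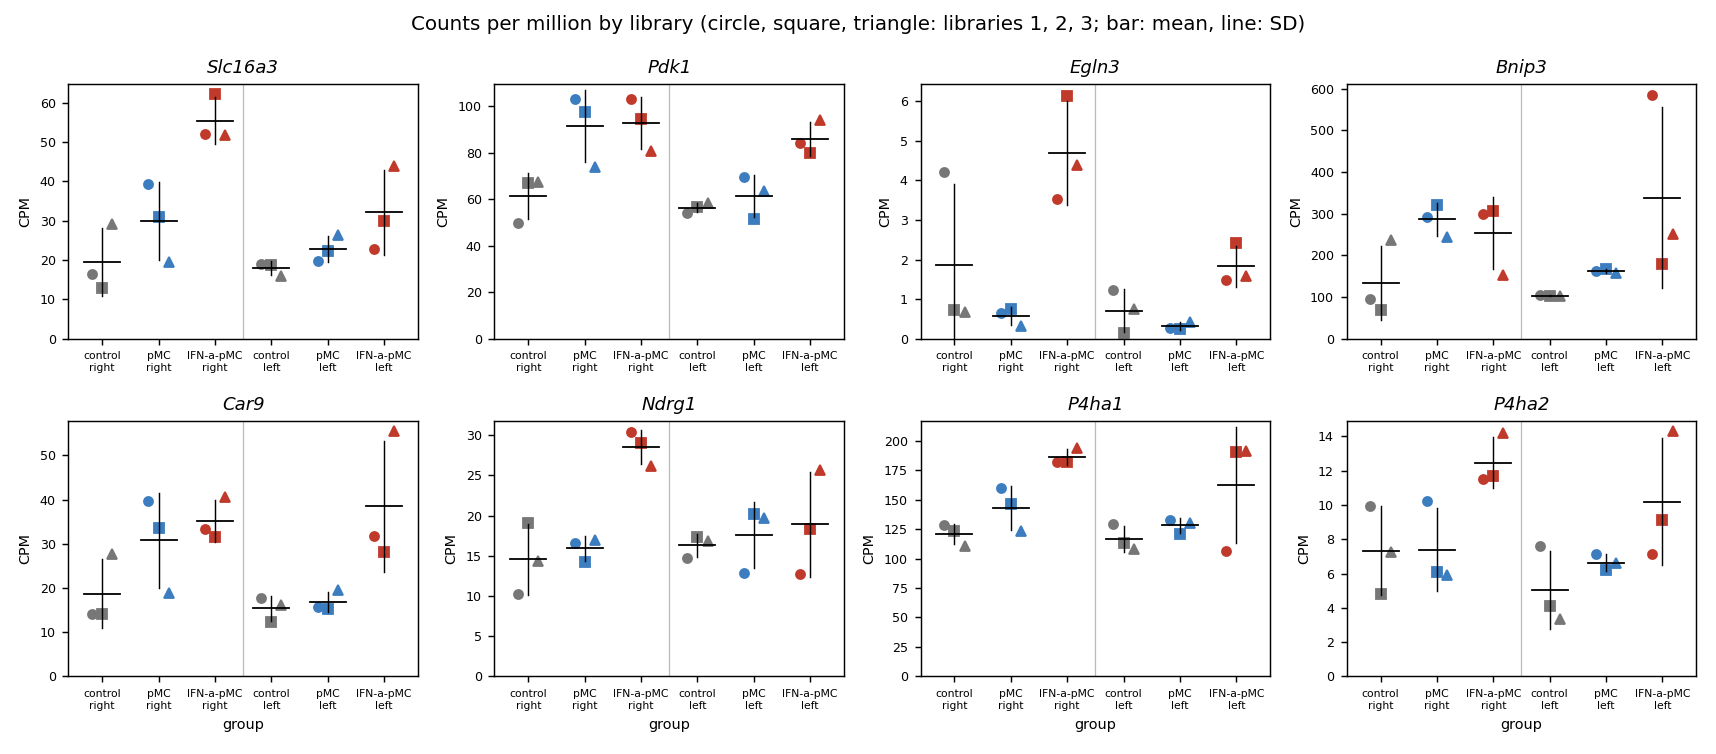
CPM of the 8 genes that passed the test in at least 1 treatment comparison, for each of 18 libraries (points, shaped by library number, with the group mean as a bar and the SD as a line) in 6 groups (x axis). Slc16a3, Ndrg1 and P4ha1 of the right IFN-alpha-pMC tumours lie above all other right libraries, and Bnip3 of the left IFN-alpha-pMC group spans 179 to 585.

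Against the pMC tumours of the same side, right IFN-alpha-pMC tumours were higher in Egln3 and Ndrg1, 2 of 33 genes, with 0 lower. Of all tested genes 8.88% were higher and 1.21% lower. Egln3, a HIF prolyl hydroxylase that is itself induced by HIF, was low throughout. It read 0.660, 0.755 and 0.311 CPM in right pMC and 3.54, 6.14 and 4.40 in right IFN-alpha-pMC libraries, a log2 difference of 2.98 ± 0.65 (edgeR adjusted p = 0.00564). In right controls it read 4.22, 0.719 and 0.685 CPM, so that control library 1 reached the IFN-alpha-pMC range and the difference of 1.37 ± 0.58 did not pass (edgeR adjusted p = 0.158). On the left it read 1.23, 0.139 and 0.763 CPM in control, 0.262, 0.255 and 0.436 in pMC and 1.48, 2.42 and 1.58 in IFN-alpha-pMC libraries. The left IFN-alpha-pMC group lay above both others, and the difference from pMC, 2.58 ± 0.71, fell just outside the threshold (edgeR adjusted p = 0.0508). The lowest of these levels lie near the floor that a count of 0 allows.

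In the distant tumours, 5 of 33 genes rose in IFN-alpha-pMC against control and 0 fell: Pdk1, P4ha1 and P4ha2, given above, with Bnip3 and Car9. Of all tested genes 4.05% rose and 2.6% fell, and the members' median was 0.24 against 0.07 over all. With 1 library left out, each of the 5 lost its call at least once. The edgeR adjusted p then reached 0.12 for Pdk1, 0.146 for P4ha1, 0.161 for P4ha2, 0.142 for Bnip3 and 0.0969 for Car9. Without overlap between groups, 10 members lay above and 5 below, where 17.8% of all genes lay above and 28.8% below. DESeq2 made more calls in this comparison, 10 higher and 1 lower, where it called 6.06% of 23470 genes higher and 6.02% lower. Those 23470 genes include low ones that the edgeR filter left out, which tends to lower the shares. All 33 members passed that filter.

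Car9, the membrane carbonic anhydrase that handles acid outside hypoxic cells, read 17.7, 12.3 and 16.2 CPM in left control, 15.7, 15.3 and 19.5 in left pMC and 31.7, 28.2 and 55.5 in left IFN-alpha-pMC libraries. The IFN-alpha-pMC group was above the other 6 left libraries. It rose by 1.46 ± 0.33 against control (edgeR adjusted p = 0.0228) and by 1.28 ± 0.33 against pMC (edgeR adjusted p = 0.0409). The edgeR adjusted p against pMC reached 0.17 with 1 library left out. By edgeR, Car9 was the 1 member of 33 that passed against left pMC, where 2.71% of all genes were higher and 1.14% lower. DESeq2 called 5 members higher there, Car9 with Pdk1, Egln3, P4ha1 and Higd1a (adjusted p = 0.0198, 0.00613, 0.031 and 0.0468). It called 5.16% of 23470 genes higher and 3.3% lower, again with low genes included. In right tumours Car9 read 14.2, 14.2 and 27.8 CPM in control, 39.8, 33.6 and 18.9 in pMC and 33.4, 31.6 and 40.5 in IFN-alpha-pMC libraries. The right IFN-alpha-pMC group lay above the controls, with 0.89 ± 0.32 (edgeR adjusted p = 0.0943).

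Bnip3 read 105, 103 and 102 CPM in left control, 162, 167 and 157 in left pMC and 585, 179 and 252 in left IFN-alpha-pMC libraries. The left groups were ordered control, pMC, IFN-alpha-pMC with no overlap, and IFN-alpha-pMC library 1 was the highest of all 18 libraries. The difference of IFN-alpha-pMC from control was 1.93 ± 0.50 (edgeR adjusted p = 0.0384), and it was 1.11 without that library. The step from control to pMC, 0.69 ± 0.48, did not pass (edgeR adjusted p = 1.0). In right tumours it read 95.2, 69.5 and 236 CPM in control, 293, 322 and 244 in pMC and 300, 306 and 153 in IFN-alpha-pMC libraries. The odd libraries of the right are the control and IFN-alpha-pMC libraries numbered 3, which lay between the groups. Neither injected group differed from control by the test, with 1.09 ± 0.48 for pMC (edgeR adjusted p = 0.945) and 0.90 ± 0.48 for IFN-alpha-pMC (edgeR adjusted p = 0.275).

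Vegfa, Slc2a1, Ldha and Pgk1, which are classical HIF targets, did not pass the edgeR test in any of the 6 comparisons with all libraries. Vegfa (the endothelial growth factor) read 51.0, 49.1 and 34.8 CPM in right control, 67.8, 58.2 and 37.6 in right pMC and 52.6, 42.7 and 50.7 in right IFN-alpha-pMC libraries. On the left it read 48.9, 44.6 and 46.0 in control, 46.4, 41.9 and 41.9 in pMC and 39.7, 38.7 and 59.7 in IFN-alpha-pMC libraries, so the groups overlapped on each side. Its differences of IFN-alpha-pMC from control were 0.15 ± 0.19 on the right and 0.13 ± 0.19 on the left.

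Slc2a1 (glucose transporter 1) read 58.4, 54.0 and 51.0 CPM in right control, 86.7, 62.3 and 38.8 in right pMC and 67.2, 68.8 and 79.2 in right IFN-alpha-pMC libraries. The IFN-alpha-pMC libraries lay above the controls, by 0.42 ± 0.22 (edgeR adjusted p = 0.277). On the left it read 58.9, 48.0 and 51.9 CPM in control, 53.2, 50.6 and 53.0 in pMC and 34.2, 49.1 and 70.1 in IFN-alpha-pMC libraries, and IFN-alpha-pMC libraries lay on both sides of the controls.

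Ldha, which turns pyruvate into lactate, read 1061, 891 and 1925 CPM in right control, 1564, 1693 and 1374 in right pMC and 1577, 2023 and 1352 in right IFN-alpha-pMC libraries. Control library 3 was inside the range of the injected groups, and the difference of IFN-alpha-pMC from control was 0.35 ± 0.28. It read 1116, 1120 and 1108 CPM in left control, 1279, 1064 and 1224 in left pMC and 1715, 1501 and 1580 in left IFN-alpha-pMC libraries. The left IFN-alpha-pMC libraries lay above the other 6, with 0.68 ± 0.28 against control (edgeR adjusted p = 0.0999). Pgk1 read 1536, 1347 and 2580 CPM in right control, 2151, 2539 and 2453 in right pMC and 2251, 2576 and 1728 in right IFN-alpha-pMC libraries. Its right groups overlapped, with 0.26 ± 0.27. It read 1597, 1725 and 1593 CPM in left control, 1827, 1732 and 1927 in left pMC and 3136, 2259 and 2438 in left IFN-alpha-pMC libraries. There too the IFN-alpha-pMC libraries were the highest, with 0.85 ± 0.28 against control (edgeR adjusted p = 0.062). The left Pgk1 difference passed by DESeq2 (0.84, adjusted p = 0.0235) and by edgeR with length removed as a trend (0.58, adjusted p = 0.0467). By edgeR with all libraries the other 21 members passed in none of the 6 comparisons. In left IFN-alpha-pMC against control DESeq2 called 4 of them, with Bnip3l, Ankrd37 and Higd1a higher (adjusted p = 0.0286, 0.0305 and 0.0136) and Hk1 lower (adjusted p = 0.0462). With the length trend removed, edgeR called Pfkfb3, which sets the level of a phosphofructokinase activator, higher in right IFN-alpha-pMC tumours, by 0.57 against control (adjusted p = 0.0195) and by 0.71 against pMC (adjusted p = 0.00449).

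Pathway genes outside the set were taken from lists of textbook members. Of 15 tested HIF factors and regulators, 1 passed the edgeR test in any comparison: Epas1, which encodes HIF-2 alpha, fell by 1.31 on the log2 scale in right IFN-alpha-pMC against control tumours (SE 0.38, edgeR adjusted p = 0.0337). It read 31.0, 32.4 and 8.96 CPM in right control and 5.09, 6.42 and 16.9 in right IFN-alpha-pMC libraries, and the libraries numbered 3 overlapped across groups. With 1 library left out its log2 change ran from -2.04 to -1.03, with an edgeR adjusted p of up to 0.154. Hif1a, which encodes HIF-1 alpha, read 262, 422 and 213 CPM in right control and 241, 242 and 317 in right IFN-alpha-pMC libraries. Vhl, the von Hippel-Lindau gene, read 61.6, 54.2 and 102 CPM in right control and 92.8, 97.3 and 63.1 in right IFN-alpha-pMC libraries. HIF activity is set largely by protein stability, which these data do not measure.

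Of 30 tested further hypoxia-inducible genes, 6 rose and 1 fell in right IFN-alpha-pMC against control tumours, where 8.78% of all tested genes rose and 2.01% fell. Ppp1r3c, a glycogen-targeting subunit of protein phosphatase 1, rose by 3.82 ± 0.69 (edgeR adjusted p = 0.00116), from 0.922, 0.0959 and 1.60 CPM to 11.4, 11.1 and 14.6 CPM. Edn1 (endothelin 1) rose by 2.96 ± 0.57 from levels near the floor, Tmem45a by 2.65 ± 0.75, Ak4 (a mitochondrial adenylate kinase) by 1.30 ± 0.32, Loxl2 (a collagen cross-linking oxidase) by 1.23 ± 0.35 and Hmox1 (heme oxygenase 1) by 0.76 ± 0.17. Tfrc, the transferrin receptor, fell by 0.97. Against right pMC 7 rose and 1 fell, beside 8.88% and 1.21% of all genes. Among those higher were Ppp1r3c, Lox, Loxl2, Edn1 and Hmox1, and Tfrc was lower by a log2 change of -1.37 ± 0.26. On the left, Nampt (209, 250 and 216 CPM in control, 521, 472 and 386 in IFN-alpha-pMC libraries), Ppp1r3c (2.87 ± 0.71) and Ak4 (1.56 ± 0.33) rose against control, and Ppp1r3c (4.16 ± 0.79) and Ak4 (1.30 ± 0.32) against pMC, where 4.05% and 2.71% of all genes rose. With 1 library left out, Ak4, Loxl2 and Tfrc lost their call against right control, Loxl2, Tmem45a and Lox against right pMC, Nampt, Ppp1r3c and Ak4 against left control, and Ppp1r3c and Ak4 against left pMC. Tmem45a against right control and Edn1 against right pMC are not given with libraries left out.

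Among other isoenzymes of glycolysis, 3 of 17 tested rose and 1 fell in right IFN-alpha-pMC against control tumours, beside 8.78% and 2.01% of all genes. Hk3, the hexokinase of myeloid cells, read 6.16, 9.74 and 8.51 CPM in right control and 26.4, 26.4 and 48.4 in right IFN-alpha-pMC libraries, a rise of 2.05 ± 0.23 (edgeR adjusted p = 2.2e-05). Pgam2, the muscle phosphoglycerate mutase, rose by 2.06 ± 0.30, and Eno3, the muscle enolase, by 1.51 ± 0.26. Hkdc1 fell by 1.50. The isoenzymes in the member set, Hk1, Hk2, Pgam1 and Eno1, gave -0.65, -0.30, 0.23 and 0.14 there, and none of them passed. On the left, Pgam2 (1.42 ± 0.30) and Eno3 (1.09 ± 0.26) rose and Pdk2 fell by 0.81 against control, and Pgam2 rose against pMC by 1.56 ± 0.30. Hk3 and Pgam2 were also higher in right than in left IFN-alpha-pMC tumours, by 1.34 ± 0.22 and 1.15 ± 0.29. With 1 library left out, Hkdc1 on the right, Pgam2, Eno3 and Pdk2 on the left and Pgam2 between the sides lost their calls. Of 7 pentose phosphate genes and 20 genes of the pyruvate dehydrogenase complex and citrate cycle, 0 passed by edgeR in any treatment comparison. In right IFN-alpha-pMC against control, 0 of the 7 and 6 of the 20 had an unadjusted p under 0.05, and DESeq2 called 4 of the 20 lower. The shares of all genes by these same rules are not given here, so these counts are not read as a trait of the lists. The 20 genes summed to 5680 to 6147 CPM in right IFN-alpha-pMC libraries, below right control (6731 to 8013) and right pMC (6741 to 7277) without overlap. Left IFN-alpha-pMC libraries, at 5493 to 6919 CPM, were also below left control (7288 to 8172) without overlap, and overlapped left pMC (6837 to 7498).

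**Figure D3:**
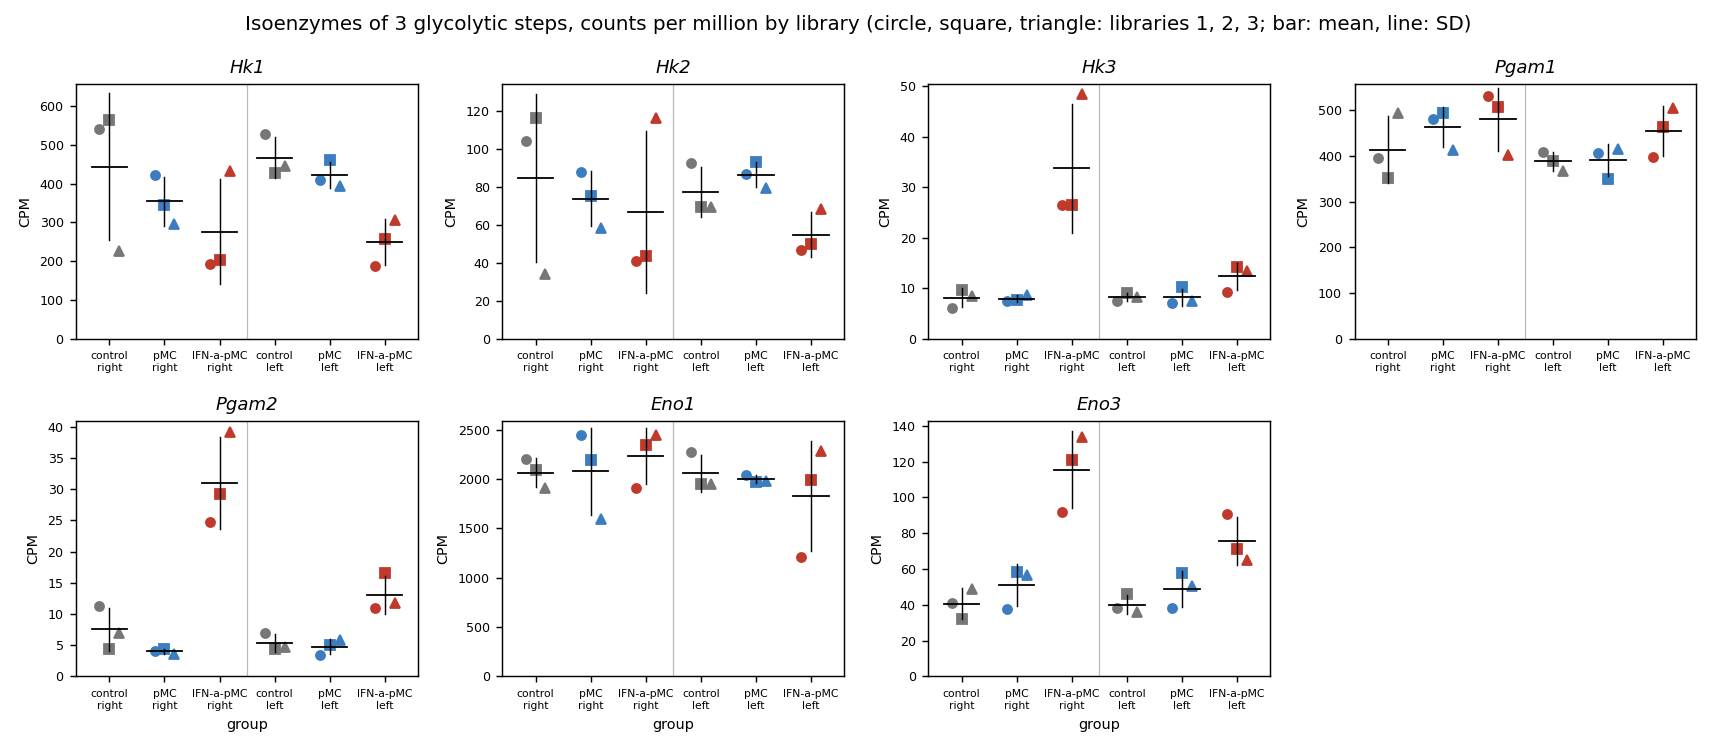
CPM of isoenzymes of hexokinase, phosphoglycerate mutase and enolase for each of 18 libraries (points, shaped by library number, with the group mean as a bar and the SD as a line) in 6 groups (x axis). Hk3, Pgam2 and Eno3 of the right IFN-alpha-pMC tumours lie above all other right libraries, whereas Pgam1 and Eno1 overlap between groups.

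Markers of some other cell types moved with the same groups, and those of others did not. The 18 skeletal muscle markers summed to 53.7 to 1284 CPM in right control, 109 to 268 in right pMC and 2315 to 5100 in right IFN-alpha-pMC libraries, with 4 of 17 tested genes passing against control and 12 against pMC. On the left the sums were 24 to 411, 28.7 to 149 and 859 to 1365 CPM. T cell markers summed to 19.3 to 40.6 CPM in right control and 191 to 248 in right IFN-alpha-pMC libraries, and all 10 of 10 passed. On the left they summed to 20.8 to 39.1 CPM in control and 56 to 70.6 in IFN-alpha-pMC libraries. Monocyte and macrophage markers summed to 440 to 987 CPM in right control and 1102 to 1121 in right IFN-alpha-pMC libraries, and to 474 to 580 and 722 to 1074 on the left. Left pMC libraries, at 569 to 969 CPM, overlapped left IFN-alpha-pMC libraries. Neutrophil markers summed to 7.42 to 8.34 CPM in right control and 17 to 39.8 in right IFN-alpha-pMC libraries. Fibroblast markers summed to 173 to 553 CPM in right control, 124 to 330 in right pMC and 427 to 912 in right IFN-alpha-pMC libraries. Erythroid markers went the other way, with 76.2 to 457 against 19.6 to 70.8 CPM. Proliferation markers were also lower there, with 1954 to 2398 against 1620 to 1830 CPM, and overlapped on the left (1802 to 2069 against 1734 to 2061). Endothelial (70.8 to 175 against 77 to 141 CPM) and adipocyte sums (30.1 to 50.8 against 22.7 to 36.1) overlapped on the right. Left endothelial sums were 116 to 127 CPM in control and 75.2 to 86.9 in IFN-alpha-pMC libraries. The keratinocyte markers Krt5, Krt14 and Krtdap were at 0 counts in right control, right pMC and right IFN-alpha-pMC libraries alike. With a muscle score per library as a covariate, 2 of the 12 called member results passed, Pdk1 and Ndrg1 of right IFN-alpha-pMC against control. The score was higher in the IFN-alpha-pMC libraries (1.47 to 3.97) than in the others (-4.41 to 0.61), except right control 1 (2.02). Muscle and treatment thus cannot be told apart by this fit, and larger errors follow from the overlap. Some folds changed little under the covariate while their errors grew. Slc16a3 on the right went from 1.49 ± 0.32 to 1.45 ± 0.42 (edgeR adjusted p = 0.0511), P4ha1 on the right from 0.66 to 0.62, Bnip3 on the left from 1.93 to 1.94 and Car9 on the left from 1.46 to 1.35, all against control. Egln3 on the right against pMC lost more than any other called result, ending at an edgeR adjusted p of 0.383, and its difference from control went from 1.37 to 0.12. The part of the other cell types in these results was not tested.

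Without the 3 libraries that stood apart, many more genes passed, members and others alike. In right IFN-alpha-pMC against control, 14 members rose and 4 fell, where 28.4% of all tested genes rose and 26.1% fell. Bnip3 rose by 1.99 (edgeR adjusted p = 3.66e-07) and Slc16a3 by 2.07 (edgeR adjusted p = 1.19e-05), and Ldha, Pgk1, Aldoa, Pgam1 and Car9 also rose. Both hexokinases of the set fell, Hk1 by 1.37 and Hk2 by 1.27. In right pMC against control, where all 18 libraries gave 0 of 33, 14 rose and 4 fell, while 19.5% of all tested genes rose and 14.2% fell. Bnip3 rose there by 1.93, Ankrd37 by 1.70, Car9 by 1.25 and Slc16a3 by 1.16, and Egln3 fell by 1.96. In left IFN-alpha-pMC against control 12 rose and 1 fell (Hk1), where 13% of all tested genes rose and 15.8% fell. All 12 results called with every library were called here too. With exonic length also removed as a trend, the members called were 14 higher and 2 lower, 11 and 1, and 11 and 1 in these 3 comparisons, where 48.9%, 24.1% and 29.5% of all tested genes passed in either direction. The comparisons on the right share their controls, which were 2 libraries after the removal. The right and the left IFN-alpha-pMC group were also 2 libraries each.

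**Figure D4:**
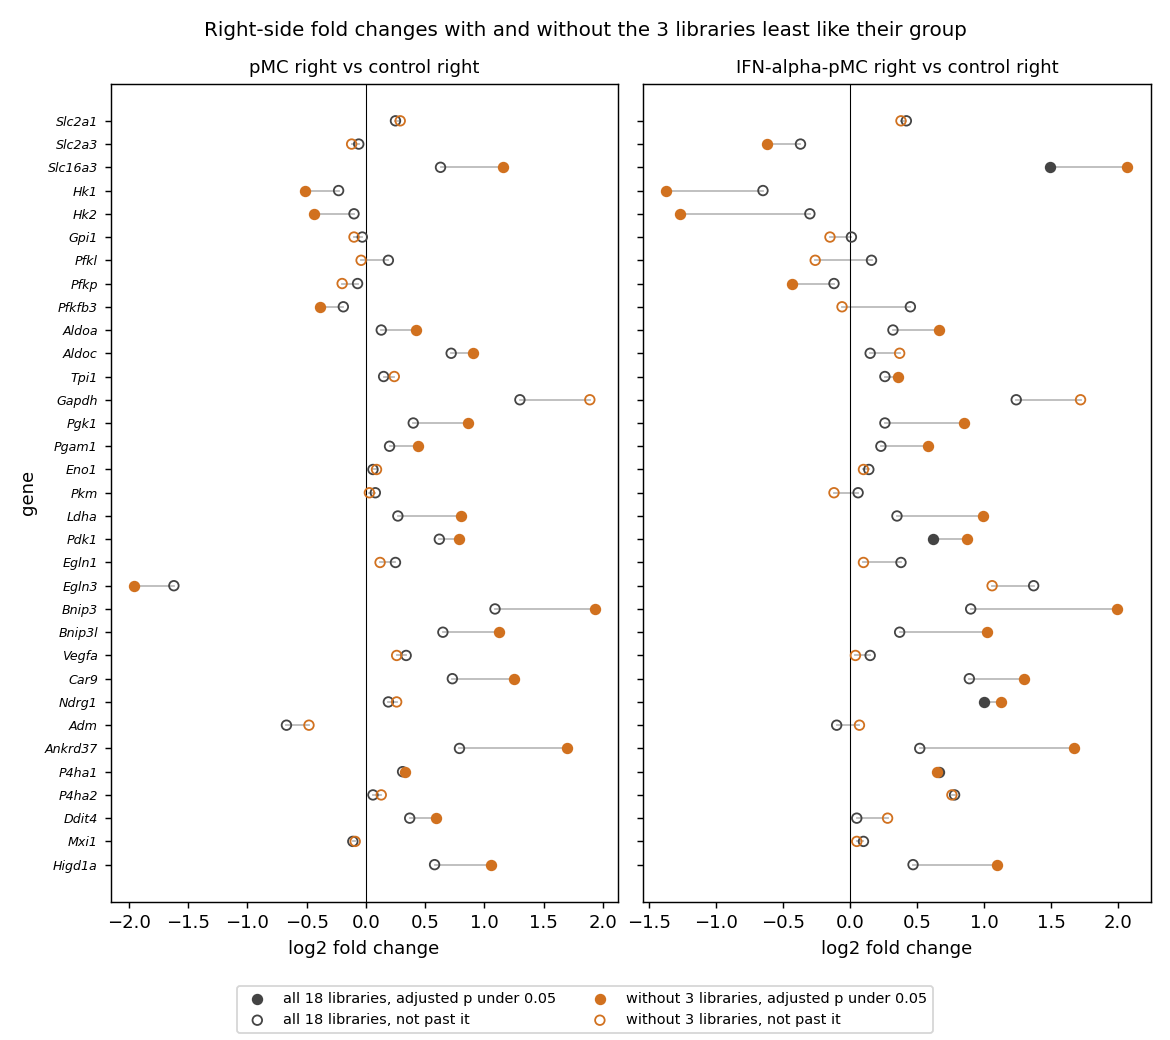
Log2 fold change of each of the 33 genes (y axis) in right pMC (left panel) and right IFN-alpha-pMC tumours (right panel) against right control, with all 18 libraries (grey) and without 3 of them (orange), filled where the adjusted p is under 0.05. Grey lines join the values of a gene, and Bnip3 moves from 0.90 to 1.99 in the right panel.

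The pMC tumours were set against control on each side with all libraries. On the right 0 of 33 passed by edgeR and 0 by DESeq2, 7 had an unadjusted p under 0.05 (2.42% of all tested genes did), and 0% of all tested genes passed. On the left 0 passed by either tool, 0 members had an unadjusted p under 0.05 (0.801% of all), and again 0% of all genes passed. The members' medians were 0.20 on the right and 0.14 on the left, against -0.03 and 0.00 over all tested genes.

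The sides were compared within each treatment. Right against left gave 0 of 33 members by edgeR and by DESeq2 in IFN-alpha-pMC (5 with an unadjusted p under 0.05), pMC (3) and control tumours (1), where 2.53%, 0% and 0% of all tested genes passed. The difference between the right and the left response passed for 0 members by both tools in each of the 3 pairs of treatments, with 1, 6 and 1 members at an unadjusted p under 0.05. Of all tested genes 0%, 0.391% and 0% passed, in the order IFN-alpha-pMC against control, IFN-alpha-pMC against pMC and pMC against control. The shares of all genes in this paragraph are for the edgeR adjusted p. Those at an unadjusted p under 0.05 are not given here, so the unadjusted member counts are not read further. Slc16a3 and Ndrg1, which passed against control on the right and not the left, and Bnip3, Car9 and P4ha2, which passed on the left and not the right, were thus not shown to respond differently between sides.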

How the data were processed

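Stranded mRNA libraries of tumours, 18 in all, were sequenced. The authors deposited 1 table of counts a library, whole read pairs for each Ensembl ID and not normalized. Per the submitters' processing notes the tools were DESeq2 1.20.0, HTSeq 0.10.0, HISAT2 2.1.0, Trimmomatic 0.36, CASAVA 1.8.2, FastQC and bcl2fastq, with build mm9. The annotation release and strand setting of the counting: not given in the sources used here. Of the read pairs, 60.2 to 70.7% were assigned to a gene and 18.38 to 24.34% aligned more than once. Pairs that fell in no gene made up 4.04 to 6.12% in the IFN-alpha-pMC libraries and 6.87 to 12.21% in all others, without overlap. Assigned shares were 64.7 to 70.7% in the IFN-alpha-pMC libraries and 60.2 to 66.7% in the others. These measures thus went with treatment, and their part in the member results was not tested. The 5 summary rows of each library were left out. Gene symbols matched 32897 of 37620 IDs. Exonic lengths came from GENCODE M21 and promoters from RefSeq, both on GRCm38, so no coordinate of the counts' build was used.

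Counts were tested with edgeR 4.0.16 in R 4.3.3 (two-sided quasi-likelihood F test, TMM scaling, filterByExpr, 6 group means over 18 libraries, 12 residual degrees of freedom, Benjamini-Hochberg over 14849 genes, threshold 0.05). CPM are counts per 1000000 of the library total. On simulated counts for right IFN-alpha-pMC against control, the test found 44% of genes changed by a log2 of 1 and 88% of those changed by 2, among 14849 genes. The simulation changed a smaller share of genes than was called in the data. It held no length trend and no libraries standing apart, so these rates may not hold for the real counts. Members, gene lists and the 3 libraries left out were chosen with earlier results of these data known. Levels per library are given for members past the threshold and for Vegfa, Slc2a1, Ldha, Pgk1 and Car9. Of the other pathway lists, genes past the threshold are named in part. At most 6 of them per list and comparison were followed with 1 library left out.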

Additional observations from a re-analysis of the deposited data

How the results depend on the processing

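The 12 called member results kept their call in 12 cases under DESeq2 and under upper quartile scaling, in 11 under DESeq2 size factors and under the length offset, in 10 with no filter, in 8 with the replicate block by number, in 6 with the compared groups only and in 2 with the muscle covariate, and none changed direction. Members called in right IFN-alpha-pMC against control numbered 0 with the compared groups only, 2 with the muscle covariate, 18 without the 3 libraries, 16 with the length offset as well and 14 without right control 3 and left IFN-alpha-pMC 1 (an alternative added, like the length offset, after seeing the data). Against right pMC they numbered 0 with the muscle covariate and 6, 8 and 4 in those 3 reduced sets, and for right pMC against control 18, 12 and 1. In left IFN-alpha-pMC against control they numbered 11 with DESeq2, 9 with the compared groups only, 2 with the replicate block, 0 with the muscle covariate and 13, 12 and 8 in the reduced sets. Against left pMC they numbered 2 with upper quartile scaling, with no filter and with the length offset, 5 with DESeq2 and with the compared groups only, 0 with the muscle covariate and 12, 10 and 3 in the reduced sets. Left pMC against control gave 1 with the compared groups only, right against left IFN-alpha-pMC gave 1 with the length offset, and the side difference of IFN-alpha-pMC against control gave 2 without the 3 libraries. The cause of these shifts was not tested. Calls over all genes shifted between fits too. In right IFN-alpha-pMC against control, 8.78% of all tested genes rose with all 18 libraries and 28.4% without the 3. For most of these fits, and for those with each library left out, the share of all genes is not given here. The counts are therefore not read as a result about the members. Leaving out each library in turn gave 2 to 12 calls for right IFN-alpha-pMC against control, 1 to 4 against pMC, 0 to 12 for left IFN-alpha-pMC against control and 0 to 8 against pMC, the highest always without right control 3, and 0 in the other 8 comparisons. Slc16a3 on the right against control and Egln3 on the right against pMC were the 2 of 12 called with every library left out in turn, and both lost their call with the muscle covariate (adjusted p = 0.0511 and 0.383). Of the 10 results that the covariate left uncalled, these kept folds close to those without it: Slc16a3 and P4ha1 on the right and Bnip3 and Car9 on the left, all against control. The muscle score largely follows treatment, so the lost calls do not tell muscle and treatment apart. Differences from control that missed the threshold changed sign with 1 library left out: Vegfa on the left, from -0.04 (without left IFN-alpha-pMC 3) to 0.26, Slc2a1 on the left, from -0.16 (without left IFN-alpha-pMC 3; -0.03 without left control 2) to 0.22, Pgk1 on the right, from -0.01 (without right control 2) to 0.72, and Egln3 on the left gave -0.02 with the muscle covariate. Pairing of same-numbered right and left libraries was not shown, with correlations of 0.59, 0.16 and -0.02 in control, 0.11, 0.02 and 0.13 in pMC and 0.28, -0.23 and 0.42 in IFN-alpha-pMC tumours, so the block is given here only.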
